A study of Homo sapiens with 15 samples.

Results

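The genes described here encode 8 membrane proteins that give the endoplasmic reticulum (ER) its shape, out of 59608 genes in the deposited table. They were taken by symbol and all 8 were found: the sheet proteins CKAP4, RRBP1 and KTN1, the tubule proteins RTN3, RTN4 and REEP5, and the atlastins ATL2 and ATL3. CKAP4 was chosen by its low counts at 500 nM ZJ-101 in these same libraries, so its 500 nM values are given as a description with no test. The other 7 were chosen by what their proteins do, with earlier results of these data known. All 8 had a mean of at least 10 normalized reads over the libraries and entered the tests, which covered 13561 genes. MDA-MB-231, a human triple-negative breast cancer cell line with a mesenchymal character, was grown in 2D culture and treated for 6 h with ZJ-101 at 0.5, 5, 50 or 500 nM or with the vehicle, 0.1% DMSO. ZJ-101 is a compound derived from a marine natural product. Each of the 5 groups had 3 dishes, and poly-A RNA of each dish gave 1 library, 15 in all. The groups share the line, the medium and the treatment time, so the p-values below measure the spread between dishes of 1 cell line.

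The ER is a continuous membrane that forms flat sheets, often studded with ribosomes, and a network of narrow tubules. Coiled-coil proteins such as CKAP4 (also called CLIMP-63) keep the membranes of a sheet at a set distance and tie them to microtubules. Reticulons and REEP proteins insert hairpins into the outer leaflet and bend the membrane into tubules and sheet edges, and atlastins are GTPases that fuse tubules into branched networks. The balance between sheet and tubule proteins is known to shift the balance between sheets and tubules, and secretory cells are rich in sheets.

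The libraries held 12415519 to 15284762 reads on genes, and mitochondrial genes took 0.889% to 2.06% of them, with overlapping ranges in all 5 groups. The line's expected markers VIM, CD44 and EGFR were at 3471 normalized reads or more in every library. The estrogen and progesterone receptor genes ESR1 and PGR stayed at 17.3 or less. The blood cell marker PTPRC and the liver marker ALB reached at most 3.53, whereas CDH1, low in this line, lay between 107 and 206, ERBB2 between 1136 and 1328 and the endothelial gene PECAM1 between 201 and 321.

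The promoters of CKAP4, RRBP1 and RTN4 are shown because these genes gave the clearest differences and differed in direction. Each is the 250 bases before the RefSeq transcription start on GRCh38.p14, 5′ to 3′ on the strand of the gene, which is the minus strand for all 3. RTN4 has 8 promoters in RefSeq, and the chosen promoter is at the start of the transcript that GENCODE marks as canonical. They lie at chr12:106248021-106248270 (CKAP4), chr20:17682243-17682492 (RRBP1) and chr2:55050452-55050701 (RTN4). Capitals mark a CCAAT box (CCAAT) or a GC box (GGGCGG) on either strand.
CKAP4: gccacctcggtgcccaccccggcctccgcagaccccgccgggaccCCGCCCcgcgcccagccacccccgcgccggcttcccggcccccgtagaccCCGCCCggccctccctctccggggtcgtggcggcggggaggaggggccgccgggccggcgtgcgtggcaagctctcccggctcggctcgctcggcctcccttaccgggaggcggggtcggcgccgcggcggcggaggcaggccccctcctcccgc
RRBP1: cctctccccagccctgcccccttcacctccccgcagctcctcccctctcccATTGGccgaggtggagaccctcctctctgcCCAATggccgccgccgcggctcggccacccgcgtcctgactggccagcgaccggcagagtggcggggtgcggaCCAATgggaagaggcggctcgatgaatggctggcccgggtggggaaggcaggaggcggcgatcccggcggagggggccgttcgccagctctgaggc
RTN4: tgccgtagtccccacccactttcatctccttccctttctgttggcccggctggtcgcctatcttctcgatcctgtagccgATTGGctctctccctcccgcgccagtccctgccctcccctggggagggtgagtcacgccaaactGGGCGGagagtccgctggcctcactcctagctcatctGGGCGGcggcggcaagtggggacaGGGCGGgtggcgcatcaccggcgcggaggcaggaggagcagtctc

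The CKAP4 promoter is 83.6% G and C, that of RRBP1 73.2% and that of RTN4 66.8%, against a median of 58.0% over the 35116 RefSeq promoters of this length. CKAP4 has 2 GC boxes and no CCAAT box, RRBP1 has 3 CCAAT boxes and no GC box, and RTN4 has 1 CCAAT box and 3 GC boxes. KTN1, REEP5, ATL2 and ATL3, like CKAP4, have GC boxes and no CCAAT box, and RTN3 has 1 of each. A GC box stands in 42.6% of all promoters and a CCAAT box in 32.0%. The unfolded protein response element UPRE (TGACGTGG), also searched on both strands, is in 0.612% of all promoters, and none of the 8 windows held these letters. The cyclic AMP element CRE (TGACGTCA), which shares its first letters with UPRE, is in 1.65% of promoters and was found in ATL2 alone among the 8, with its first base at -24 from the start.

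CKAP4 was the member with the largest difference at 50 and 500 nM, and it was chosen for its fall at 500 nM. It spans chr12:106237881-106304279 on the minus strand (GRCh38, GENCODE 44), and 6.00% of its exon bases also lie in exons of TCP11L2 on the other strand. Its normalized read counts in DMSO were 8970, 9290 and 9411. They were 8583, 8884 and 8352 at 0.5 nM and 7341, 8003 and 8185 at 5 nM. At 50 nM they were 4411, 4864 and 4338, and at 500 nM 3045, 2806 and 2777. Every library at 50 nM lay below every library of DMSO, 0.5 nM and 5 nM, and every library at 500 nM lay below those at 50 nM. In bulk RNA, fewer cells with the transcript and less transcript per cell cannot be told apart.

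Group means of CKAP4 were 9223 ± 228 in DMSO, 8606 ± 267 at 0.5 nM, 7843 ± 444 at 5 nM, 4537 ± 285 at 50 nM and 2876 ± 147 at 500 nM (SD, n = 3). The levels at 50 and 500 nM were 49.2% and 31.2% of the DMSO mean. Fold changes here are differences of log2(normalized count + 1), tested with limma with p adjusted by the Benjamini-Hochberg method over all tested genes. At 5 nM CKAP4 fell by 0.24 on the log2 scale (SE 0.05, limma adjusted p = 0.0223), and at 50 nM it fell by 1.02 (SE 0.05, limma adjusted p = 4.16e-10), which was the sixth smallest p of all genes. At 0.5 nM the difference was -0.10 (95% interval -0.21 to 0.01, limma adjusted p = 0.403). The means in these comparisons share the DMSO libraries with the choice of the gene, and the spread in the fit comes from all 15 libraries.

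From 5 to 50 nM CKAP4 fell by 0.79 (SE 0.05, limma adjusted p = 3.4e-08), 1.73-fold. The means of this step hold neither the DMSO nor the 500 nM libraries, although these entered the spread of the fit. With only the 6 libraries of 5 and 50 nM in the fit, the limma adjusted p was 6.30e-08. From 0.5 to 5 nM the difference was -0.14 (limma adjusted p = 0.554). Between 50 and 500 nM the difference was -0.66, and against DMSO at 500 nM it was -1.68, 3.21-fold lower, both without a test. A slope over the rank of the dose from DMSO to 50 nM, fitted without the 500 nM libraries but on the same DMSO libraries that the choice of CKAP4 used, was -0.32 per step (SE 0.04, limma adjusted p = 2.51e-04). In that slope 3.50% of all genes were called, and of the 7 other members limma and edgeR called 0 (1 with an unadjusted p under 0.05) and DESeq2 called 1, RTN4. The share of all genes at that unadjusted p was not counted for the slope. The call at 5 nM was lost without DMSO replicate 1, 2 or 3 (limma adjusted p 0.0628, 0.0996 and 0.104) and without 5 nM replicate 1 or 2 (0.142 and 0.0652), and over all alternatives its adjusted p ranged from 0.00149 to 0.142.

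**Figure D1:**
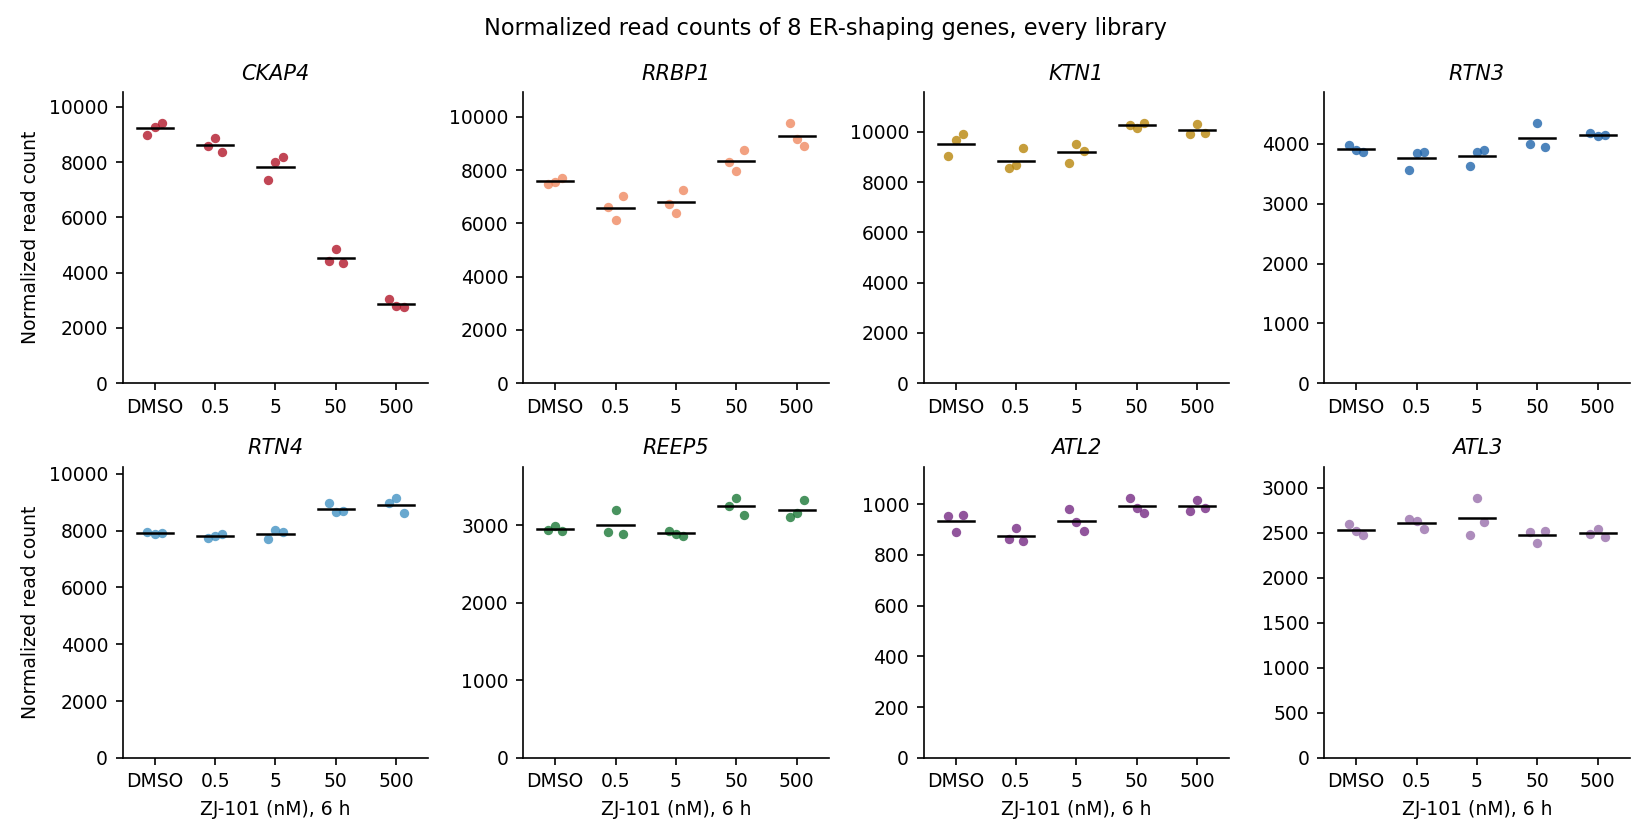
Normalized read counts of the 8 genes in every library, with the dose of ZJ-101 in nM on the x axis, points for libraries, lines for group means and y axes that start at 0. CKAP4 goes from a mean of 9223 in DMSO to 2876 at 500 nM, while the other 7 genes stay between 86.9% and 122% of their DMSO means.

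RRBP1, the ribosome-binding p180 protein of rough ER sheets, rose at 500 nM. It spans chr20:17613678-17682295 on the minus strand and shares no exon base with another gene. Its normalized read counts were 7491, 7564 and 7715 in DMSO. They were 6627, 6121 and 7049 at 0.5 nM and 6744, 6391 and 7265 at 5 nM, all below the DMSO libraries. At 50 nM they were 8313, 7971 and 8770, and at 500 nM 9765, 9165 and 8906, all above the DMSO libraries.

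Against DMSO, RRBP1 rose at 500 nM by 0.29 on the log2 scale (SE 0.06, limma adjusted p = 0.00123), from a mean of 7590 ± 114 to 9279 ± 440 (SD, n = 3), or 1.22-fold. At 50 nM the difference was 0.14 (limma adjusted p = 0.199). At 0.5 nM it was -0.20 (95% interval -0.32 to -0.09, limma adjusted p = 0.0982) and at 5 nM -0.16 (limma adjusted p = 0.187), neither past the threshold. DESeq2 on the recovered reads passed the 0.5 nM value (adjusted p = 0.0309), and limma on only the 6 libraries compared passed the 5 nM value (adjusted p = 0.0265). Limma also passed the 0.5 nM value when replicate 3 of that dose was left out (adjusted p = 0.0296). Over all alternatives the adjusted p reached 0.277 at 0.5 nM and 0.561 at 5 nM. RRBP1 rose from 5 to 50 nM by 0.30 (SE 0.06, limma adjusted p = 0.00328), and from 50 to 500 nM the difference was 0.15 (limma adjusted p = 0.231). Its libraries were thus lowest at 0.5 and 5 nM and highest at 500 nM, and the slope from DMSO to 50 nM was 0.05 per step (limma adjusted p = 0.615).

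KTN1, kinectin, an ER membrane anchor of the motor protein kinesin, did not pass the test against DMSO at any dose. It spans chr14:55559072-55701526 on the plus strand, with 0.449% of its exon bases also in the antisense gene KTN1-AS1. Its libraries lay between 9020 and 9899 in DMSO, between 8543 and 9358 at 0.5 nM and between 8771 and 9532 at 5 nM. At 50 nM they lay between 10161 and 10341 and at 500 nM between 9908 and 10322, in both groups above every DMSO library. The difference from DMSO was 0.11 at 50 nM (95% interval 0.01 to 0.21, limma adjusted p = 0.227) and 0.08 at 500 nM (95% interval -0.02 to 0.18, limma adjusted p = 0.277). From 5 to 50 nM it was 0.16 (limma adjusted p = 0.0569), which did not pass the threshold but did in 6 of 24 alternatives. These included DESeq2 (adjusted p = 0.0175) and limma with only the 6 libraries compared (adjusted p = 0.0435) or without 0.5 nM replicate 2 or 3 (0.0223 and 0.0333), and the adjusted p reached 0.232 over all alternatives. The sheet proteins therefore included a gene that was lower at 50 nM, a gene that was higher at 500 nM and a gene that did not pass the test against DMSO at any dose.

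RTN4, the reticulon also called Nogo, spans chr2:54972187-55112621 on the minus strand. Its normalized read counts were 7943, 7890 and 7907 in DMSO, 7726, 7811 and 7860 at 0.5 nM and 7701, 8013 and 7957 at 5 nM. At 50 nM they were 8981, 8645 and 8674, and at 500 nM 8954, 9152 and 8611. Every library at the 2 higher doses lay above every library of the other 3 groups. RTN4 rose by 0.15 at 50 nM (SE 0.04, limma adjusted p = 0.0194) and by 0.17 at 500 nM (SE 0.04, limma adjusted p = 0.00282), 1.11-fold and 1.13-fold. At 0.5 and 5 nM the differences were -0.02 and -0.004 (limma adjusted p = 0.855 and 0.982). RTN4 also rose from 5 to 50 nM by 0.15 (limma adjusted p = 0.0197), and the difference from 50 to 500 nM was 0.02 (95% interval -0.06 to 0.10, limma adjusted p = 0.855). The rise at 50 nM was not past the threshold without DMSO replicate 1, 2 or 3 (limma adjusted p 0.0628, 0.0798 and 0.0657) or without 50 nM replicate 1 (0.0974). That from 5 to 50 nM was not without 5 nM replicate 1 or 3 or 50 nM replicate 1 (0.0971, 0.054 and 0.0945). Both calls were also lost without the filter on low values (limma adjusted p 0.0735 and 0.0727). Over all alternatives the adjusted p lay between 0.00129 and 0.0974 at 50 nM and between 0.00115 and 0.0971 for the step.

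REEP5, a hairpin protein of the family that includes yeast Yop1, spans chr5:112876385-112922289 on the minus strand, and 9.26% of its exon bases also lie in exons of SRP19 and of the pseudogene ZRSR2P1 on the other strand. Its normalized read counts were 2940, 2990 and 2920 in DMSO, 2915, 3195 and 2881 at 0.5 nM and 2931, 2891 and 2867 at 5 nM. They were 3247, 3353 and 3132 at 50 nM and 3101, 3158 and 3323 at 500 nM. All libraries of the 2 higher doses were above DMSO and 5 nM, and 0.5 nM replicate 2 lay among them. REEP5 rose from 5 to 50 nM by 0.16 (SE 0.04, limma adjusted p = 0.0426), a call that passed in 13 of 24 alternatives and was lost without the filter on low values, with TMM scaling and when any 1 of 9 libraries was left out, with an adjusted p between 0.00659 and 0.138 over all alternatives. Against DMSO the differences were 0.14 at 50 nM (95% interval 0.04 to 0.23, limma adjusted p = 0.0866) and 0.11 at 500 nM (95% interval 0.02 to 0.21, limma adjusted p = 0.0926), not past the threshold. At each of these doses REEP5 passed in 2 of 24 alternatives. In limma with only the 6 libraries compared the adjusted p was 0.0439 and 0.0288. Without 0.5 nM replicate 2 it was 0.0197 and 0.0273. Over all alternatives the adjusted p reached 0.226 and 0.306.

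RTN3, a reticulon whose long form is a receptor for ER-phagy, the autophagy of the ER, spans chr11:63681446-63759891 on the plus strand. Its libraries lay between 3859 and 3984 in DMSO, between 3560 and 3902 over the 2 lower doses, between 3943 and 4344 at 50 nM and between 4134 and 4176 at 500 nM. The 500 nM libraries were all above DMSO and those at 50 nM overlapped DMSO. The difference at 500 nM was 0.09 (95% interval -0.01 to 0.18, limma adjusted p = 0.225). The pseudogene RTN3P1 aligned to 11.5% of an RTN3 transcript at 98.1% identity, and the gene ENSG00000278943 to 20.8% of it at 94.3%, so reads of RTN3 from these stretches are uncertain.

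The atlastin transcripts were the lowest of the 8 per kilobase, and neither passed the test at any dose. ATL2 spans chr2:38293954-38377285 and ATL3 chr11:63624087-63671921, both on the minus strand, and 1.55% of the exon bases of ATL3 lie in an antisense gene. ATL2 libraries lay between 890 and 959 in DMSO, between 853 and 907 at 0.5 nM, between 893 and 981 at 5 nM, between 967 and 1025 at 50 nM and between 971 and 1014 at 500 nM. The libraries of ATL2 at the 2 higher doses were above DMSO. Its difference at 500 nM was 0.08 (95% interval -0.02 to 0.19, limma adjusted p = 0.293). ATL3, also a receptor for ER-phagy, lay between 2471 and 2593 in DMSO and between 2454 and 2544 at 500 nM, ranges that overlapped. The interval of its difference at 500 nM was -0.12 to 0.08 (limma adjusted p = 0.845), and its highest library was 5 nM replicate 2, at 2886. ATL3 was the only member other than CKAP4 with a lower mean than DMSO at 50 nM (-0.03, limma adjusted p = 0.821).

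Counted by dose, limma called 0 of the 8 genes at 0.5 nM, where 1.17% of all tested genes were called; 2 had an unadjusted p under 0.05, edgeR called 0 and DESeq2 called 1. At 5 nM 1 fell, CKAP4, against a background of 2.18%. At 50 nM 1 rose, RTN4, and 1 fell, CKAP4, against 6.00%. At 500 nM 2 of the 7 genes other than CKAP4 rose, RRBP1 and RTN4, and 0 fell, where 17.8% of all genes were called and 7.69% were called higher. The median log2 difference of those 7 was 0.09, and over all tested genes it was 0.003.

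Between neighbouring doses, the step from 5 to 50 nM held calls for 4 of the 8 genes, against 5.01% of all genes. RRBP1, RTN4 and REEP5 were higher and CKAP4 was lower. The step from 0.5 to 5 nM held 0 (1 with an unadjusted p under 0.05, 0 by edgeR and by DESeq2, 0.118% of all genes) and that from 50 to 500 nM held 0 of 7 (1 with an unadjusted p under 0.05, 0 by edgeR and by DESeq2, 2.28%). The libraries of a dose were all above or all below those of DMSO in 3, 2 and 6 of the 8 genes at 0.5, 5 and 50 nM and in 6 of 7 at 500 nM. The same held for 18.1%, 23.2%, 24.8% and 38.5% of all tested genes.

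**Figure D2:**
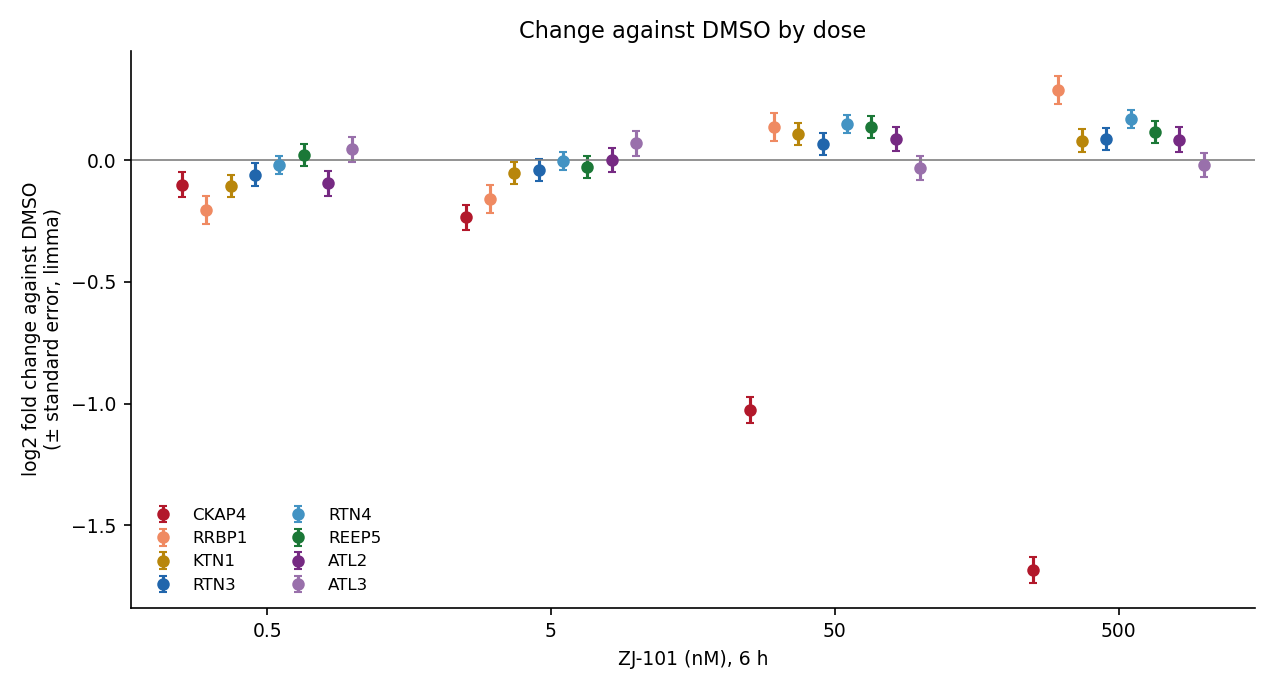
Log2 fold change against DMSO on the y axis for the 8 genes at each dose of ZJ-101 (nM, x axis), with standard errors from limma as bars. At 500 nM CKAP4 lies at -1.68, RRBP1 at 0.29 and RTN4 at 0.17, and the other 5 genes lie between -0.02 and 0.11.

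To compare levels between genes, normalized read counts were divided by the kilobases of merged exons, which understates genes with many long or rarely used exons such as KTN1, with 25 annotated transcripts over 17.6 kb. In DMSO the level per kilobase was highest for CKAP4, at 2516 ± 62.2 (SD, n = 3). RTN4 followed at 1191 ± 4.11, RRBP1 at 1087 ± 16.3, REEP5 at 742 ± 9.16 and RTN3 at 675 ± 11.2. KTN1 was at 542 ± 25.9, ATL3 at 333 ± 8.02 and ATL2 at 161 ± 6.64. No neighbours in this order overlapped between libraries.

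At 500 nM the CKAP4 level per kilobase was 784 ± 40.2, the fourth of the 8. RTN4, at 1340 ± 41.2, and RRBP1, at 1329 ± 63.1, came first and overlapped each other, and the CKAP4 libraries overlapped those of REEP5 at 804 ± 29.1. The order of the 4 lower genes was as in DMSO. The CKAP4 level per kilobase was 2.31 times that of RRBP1 in DMSO, 2.50 times at 0.5 nM, 2.20 times at 5 nM, 1.04 times at 50 nM and 0.590 times at 500 nM. CKAP4 took 20.7% of the reads of the 8 genes in DMSO, 18.7% at 5 nM, 10.6% at 50 nM and 6.85% at 500 nM. The 8 genes took 0.324% to 0.335% of all reads in DMSO and 0.307% to 0.315% at 500 nM. The ratio of RTN3 to RTN4 per kilobase was 0.567 ± 0.008 in DMSO and 0.535 ± 0.017 at 500 nM, and that of ATL2 to ATL3 was 0.484 ± 0.023 and 0.520 ± 0.007.

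**Figure D3:**
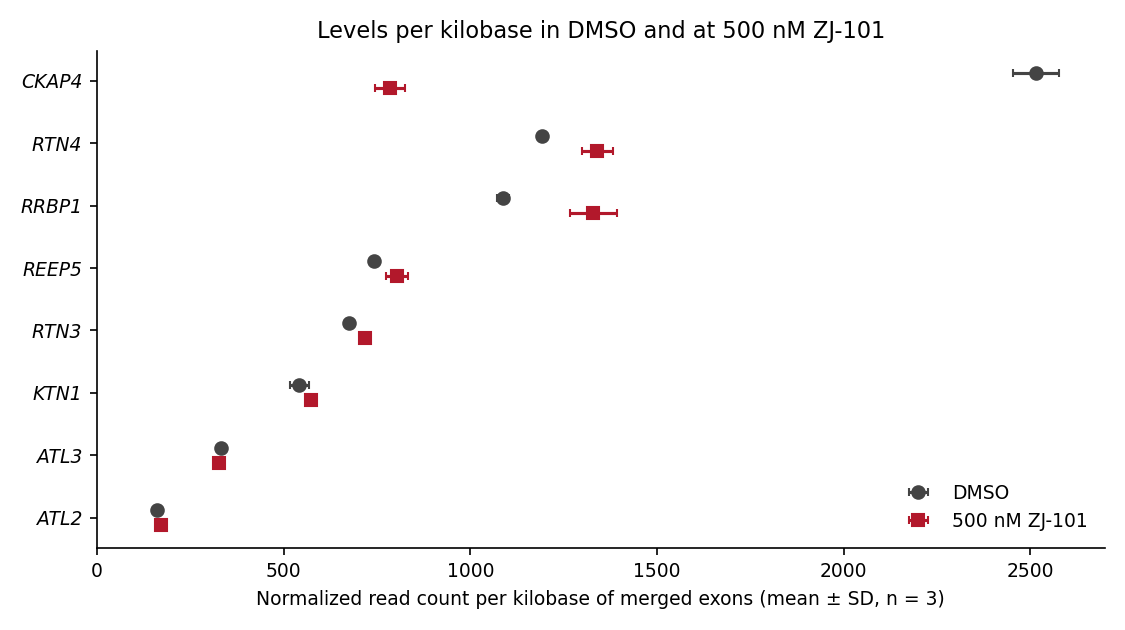
Normalized read counts per kilobase of merged exons (x axis) of the 8 genes in DMSO (circles) and at 500 nM ZJ-101 (squares), as mean and SD of 3 libraries. CKAP4 goes from the first place, at 2516, to 784, between REEP5 and RTN3.

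The genes most like CKAP4 over the 15 libraries were looked for among all tested genes other than the members. The measure was the root mean square difference of log2 values, each taken from the gene's own DMSO mean. The nearest 5 were NFE2L3 (0.15), ID3 (0.15), CSF1 (0.16), MMP14 (0.16) and NFE2L1 (0.19). NFE2L3 and NFE2L1 are CNC family transcription factors, ID3 is an inhibitor of basic helix-loop-helix factors, CSF1 is the macrophage colony-stimulating factor and MMP14 is a membrane-bound matrix metalloproteinase. None is among the other ER-shaping genes, ER-phagy receptors or tethers described below. Their log2 differences from DMSO at 50 nM were -0.82, -1.18, -0.95, -0.98 and -1.28, and at 500 nM -1.89, -1.78, -1.44, -1.37 and -1.44, in the order given. NFE2L3 went from 3177 ± 69.9 normalized reads in DMSO to 857 ± 37.8 at 500 nM (SD, n = 3). The other 7 members stood at 0.88 (ATL3) to 1.03 (RRBP1) from CKAP4, where the median gene stood at 0.90. This likeness used the 500 nM values of CKAP4 and is a description.

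**Figure D4:**
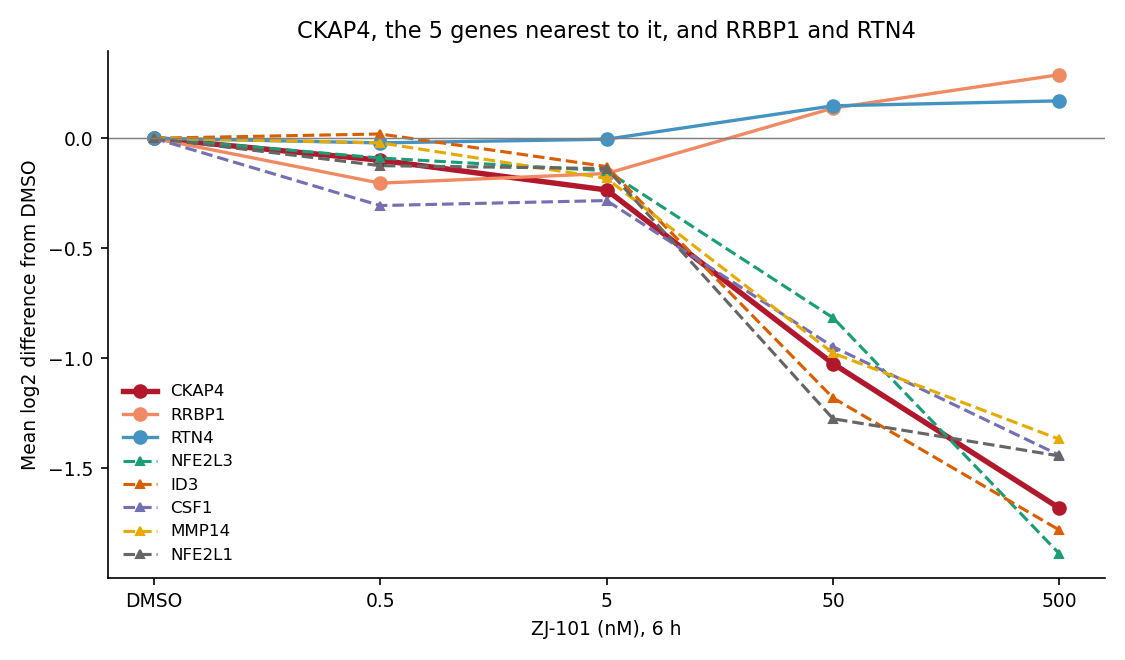
Mean log2 difference from DMSO (y axis) by dose of ZJ-101 (nM, x axis) for CKAP4, RRBP1, RTN4 and the 5 genes nearest to CKAP4 (dashed lines). The dashed lines end between -1.89 and -1.37 around CKAP4 at -1.68, while RRBP1 and RTN4 end above 0.

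Of 17 other genes that shape ER membranes, 4 rose and 2 fell at 500 nM, against 7.69% and 10.1% of all tested genes, with a median log2 difference of 0.0002. TMCC3, a protein that works with atlastins at tubule junctions, rose by 0.49 (limma adjusted p = 1.06e-04). ZFYVE27, or protrudin, rose by 0.40 (limma adjusted p = 5.52e-04), and TMEM33, a reticulon-binding protein, rose by 0.27 (limma adjusted p = 1.35e-04). REEP4, a relative of REEP5, was the remaining rise, at 0.25 (limma adjusted p = 0.00335), and is named after its value was seen. TMCC2 fell by 0.41 (limma adjusted p = 0.00492). The reticulon RTN2 fell by 0.25 (limma adjusted p = 0.0308), a call lost with DESeq2, without the filter on low values, when DMSO replicate 1 or 2 was left out, and when replicate 2 or 3 of 500 nM was left out (adjusted p from 0.0218 to 0.157 over all alternatives). At 50 nM 2 rose, REEP4 and TMEM33, and 0 fell, where 6.00% of all genes were called.

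Among 7 receptors for ER-phagy other than RTN3 and ATL3, 2 rose and 1 fell at 500 nM, where 7.69% of all tested genes rose and 10.1% fell, with a median of 0.02. SEC62, also a part of the translocon machinery, rose by 0.34 (limma adjusted p = 6.41e-05) and TEX264 by 0.25 (limma adjusted p = 0.0114), the second of which was lost without DMSO replicate 2 or 3 (adjusted p from 0.00301 to 0.0676 over all alternatives). CCPG1 fell by 0.89 (SE 0.11, limma adjusted p = 7.8e-06), from 219 ± 24.1 to 117 ± 12.5 normalized reads (SD, n = 3). At 50 nM, where 6.00% of all genes were called, SEC62 and TEX264 rose and CCPG1 was at -0.20 (limma adjusted p = 0.373).

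Of 9 tethers that hold the ER to other membranes, 1 rose and 1 fell at 500 nM, where 17.8% of all tested genes were called, with a median of 0.06. STIM1, the ER calcium sensor, rose by 0.23 (limma adjusted p = 0.00279). VAPA fell by 0.15 (limma adjusted p = 0.0369), a call lost without the filter on low values and without any 1 of the 3 DMSO or the 3 treated libraries (adjusted p from 0.00741 to 0.151 over all alternatives). At 50 nM limma called 0 of the 9, where 6.00% of all tested genes were called. Of these 9, 2 had an unadjusted p under 0.05, and edgeR called 1 and DESeq2 0. At 0.5 and 5 nM 0 genes of the 3 lists were called by limma, edgeR or DESeq2. Limma called 1.17% and 2.18% of all tested genes at these doses. At 0.5 nM 3, 3 and 1 of the shaping genes, receptors and tethers had an unadjusted p under 0.05, and at 5 nM 1 of each. Such p-values were common among the 13561 tested genes, but their share was not counted. By limma KTN1 ranked 1610 at 0.5 nM (unadjusted p = 0.0358) and 1983 at 50 nM (0.0332), and RRBP1 ranked 807 at 5 nM (0.0111). CCPG1 had the lowest fold change of these 33 genes at 500 nM. CKAP4 was lower still, but it was chosen for its fall at this dose, so this order is only a description.

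**Figure D5:**
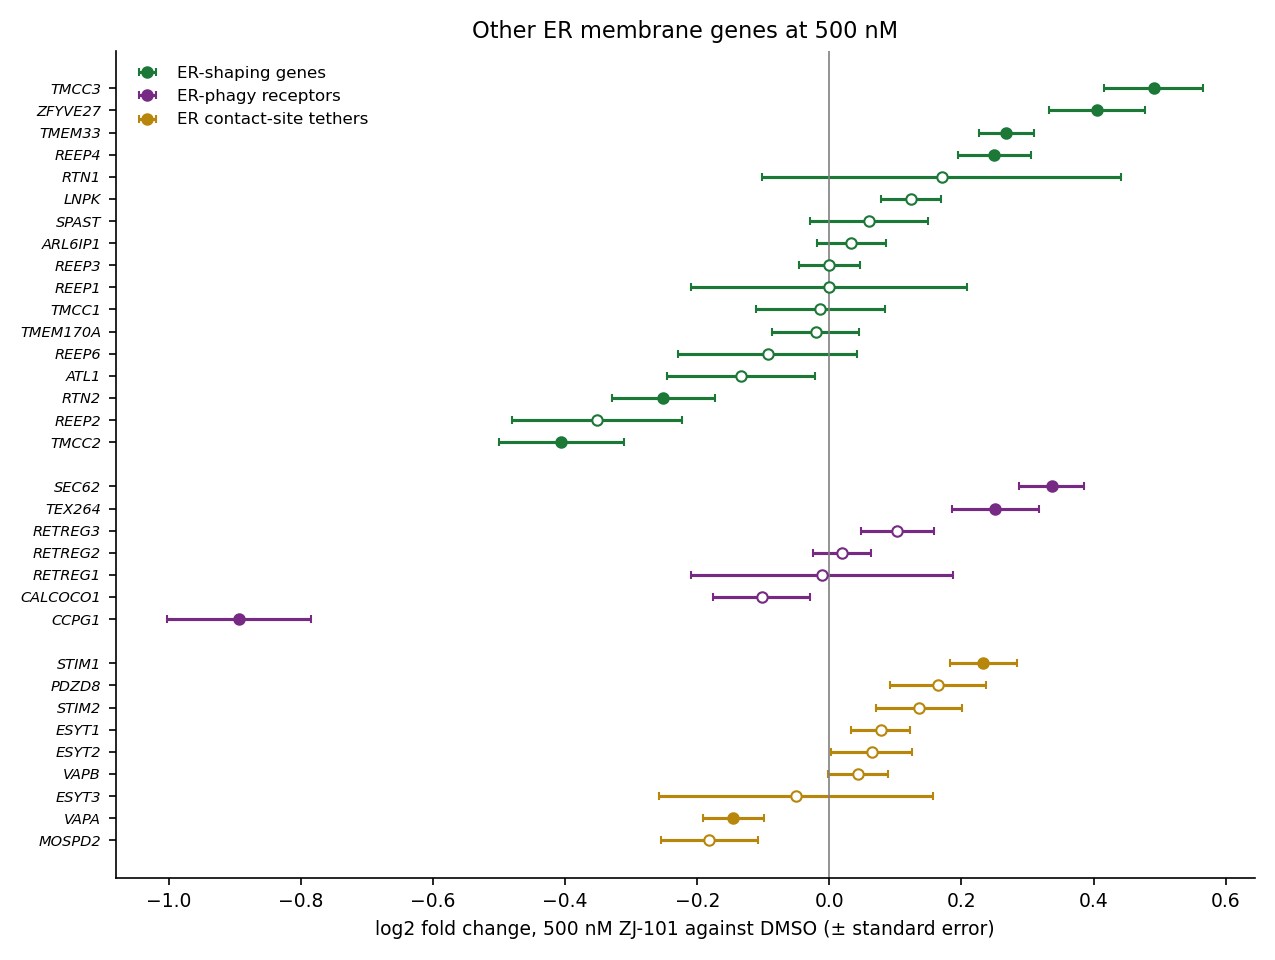
Log2 fold change at 500 nM ZJ-101 against DMSO (x axis) with standard errors for 17 ER-shaping genes, 7 ER-phagy receptors and 9 contact-site tethers, with filled points for an adjusted p under 0.05. CCPG1 at -0.89 is the lowest and TMCC3 at 0.49 the highest.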

How the data were processed

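Poly-A RNA of MDA-MB-231 dishes was sequenced in paired reads, 3 libraries for each of 5 groups. Per the labels and the study's methods, the authors used HISAT2 with hg38 for alignment, HTSeq for the counts per gene and DESeq2 size factors to scale the libraries. The strand setting and the GENCODE release used for counting are not given in the sources used here. The deposited signal values are these normalized counts for 59608 genes, listed by symbol. 1 line that names no gene was left out. The smallest step between values of a library is worth 1 read, and in these steps 100% of values were whole within 0.001, with 12415519 to 15284762 reads on genes per library and size factors between 0.916 and 1.13. The counts of replicate pairs differed by more than sampling noise (chi-square over its degrees of freedom 2.04 to 16.5), so no pair was a duplicate. The pairs of 0.5 nM replicate 2 gave 11.1 and 16.5, and the next highest value was 6.27. This library entered the spread of the main fit for every contrast, and more genes were called at 50 and 500 nM without it.

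Genes with a mean of at least 10 (13561) were tested with limma 3.58.1 (R 4.3.3) on log2(normalized count + 1), with a variance trend, 5 groups in 1 fit and 10 residual degrees of freedom. The pseudocount makes folds of low genes smaller. The adjusted p threshold was 0.05. No contrast of CKAP4 with the 500 nM group was tested, although those libraries entered the residual variance of the fit. The members and lists were chosen with earlier results of these data known. Named were every member, up to 3 rises and 3 falls of each other ER list with the largest change at 500 nM, and the 5 genes nearest to CKAP4. On simulated data of this design (500 nM against DMSO, 13507 genes), 78 of 100 changes of 0.5 and 100 of 100 changes of 1 on the log2 scale were recovered, with 8 false calls. The simulation gave every gene and library the same dispersion, 0.005, so it held no uneven library such as 0.5 nM replicate 2. It held no changes smaller than 0.5, so it does not cover the smaller differences reported here. Alternatives were pseudocounts of 0.5 and 5, no filter, a mean of at least 50, TMM scaling, edgeR 4.0.16 and DESeq2 1.42.0 on the recovered reads, only the 6 libraries compared, the replicate number as a block, an adjusted p under 0.1, and each library left out. Positions and exon lengths came from GENCODE 44 on GRCh38 and similar transcripts from minimap2 2.31-r1302. Of the tested genes, 93.8% had the same symbol in GENCODE 44. Promoters came from RefSeq (GRCh38.p14).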

Additional observations from a re-analysis of the deposited data

How the results depend on the processing

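The fall of CKAP4 at 50 nM passed in 24 of 24 alternatives, between -1.08 and -0.99 on the log2 scale, and its step from 5 to 50 nM in 24 of 24, between -0.84 and -0.76. RRBP1 at 500 nM passed in 24 of 24 (0.25 to 0.32), as did RTN4 (0.15 to 0.19), and RTN4 at 50 nM passed in 19 of 24. Without the filter on low values the number of the 8 genes called was 1 in place of 2 at 50 nM and 2 in place of 4 from 5 to 50 nM. The same setting gave 1 in place of 2 for the ER-shaping genes and for the ER-phagy receptors at 50 nM, and 1 in place of 2 for the tethers and 5 in place of 6 for the ER-shaping genes at 500 nM. At 0.5 nM, 1 of the 8 was called with DESeq2 and with an adjusted p under 0.1, in place of 0. At 5 nM, 2 were called with only the 6 libraries compared, in place of 1, and in the slope 2 with DESeq2, in place of 1. The tethers at 50 nM had 1 call, in place of 0, with a mean of at least 50, edgeR, only the 6 libraries and an adjusted p under 0.1. Calls over all genes changed too. At 50 nM they were 258 higher and 420 lower of 31620 genes without the filter, in place of 311 and 503 of 13561. At 5 nM they were 315 and 531 with only the 6 libraries, in place of 63 and 232. At 0.5 nM DESeq2 gave 70 and 161 of the 10404 genes with an adjusted p, in place of 34 and 125 of 13561. The cause of these changes was not tested.

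With 1 library left out, the 8 genes gave 0 to 1 calls at 0.5 nM, 0 to 1 at 5 nM, 1 to 3 at 50 nM and 2 to 5 from 5 to 50 nM, and the 7 without CKAP4 gave 2 to 3 at 500 nM. The ER-shaping genes gave 1 to 3 at 50 nM and 5 to 7 at 500 nM, the receptors 1 to 2 and 2 to 3, and the tethers 0 to 1 and 1 to 3. Calls over all tested genes moved as well. At 500 nM they ran from 766 higher and 1029 lower without DMSO replicate 2 to 1443 and 1654 without 0.5 nM replicate 2. The full fit gave 1043 and 1366. At 50 nM they ran from 204 and 356 without 50 nM replicate 1 to 539 and 737 without 0.5 nM replicate 2. Here the full fit gave 311 and 503. Values that were never called changed sign for RTN4 at 5 nM (0.005 with TMM scaling, and between -0.0157 and 0.0129 with 1 library left out), REEP5 at 0.5 nM (between -0.0254 and 0.049) and ATL2 at 5 nM (between -0.0352 and 0.0326, at -0.0346 without DMSO replicate 2). The standard errors of the 8 genes were 0.04 to 0.06 on the log2 scale, and differences of about 0.1 did not pass the adjusted threshold.

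Same-numbered libraries showed no strong shared deviation, with r above 0.1 in 0 of 30 pairs (-0.085 to 0.096). Of 15 libraries, 7 correlated best with their own number. The main fit used no pairing, although values this small cannot exclude a weak one. With the replicate number as a block, the calls were 0, 1, 2 and 2 from 0.5 to 500 nM and 5 from 5 to 50 nM, in place of 4, the fifth being KTN1 (adjusted p = 0.0334). Over all tested genes that step then gave 368 higher and 346 lower, in place of 355 and 324.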
